A study of Mus musculus with 4 samples.

Results

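Calretinin (Calb2) and calbindin (Calb1) are EF-hand proteins, which bind calcium through paired helix-loop-helix hands and act as cytosolic calcium buffers. Pcp4 and its paralog Pcp4l1 are small proteins with an IQ motif, a sequence through which many proteins bind calmodulin, the main calcium sensor of neurons. Whether either of them binds calmodulin was not measured here. In the olfactory epithelium an odorant receptor opens cyclic nucleotide-gated channels that let calcium into the cilia of the olfactory sensory neuron (OSN), so buffers and calmodulin partners sit downstream of every odorant response. Each mature OSN expresses a single odorant receptor gene, and neurons with the same receptor are called a population here.

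The levels of Calb2, Calb1, Pcp4l1 and Pcp4, 4 genes of 55511 in the count table, were followed across cell types, mature neuron clusters and receptor populations. These genes were chosen by their family and by a pattern already seen in the same neurons, so their levels by type, cluster and population are given as a description with no test. The cells came from the main olfactory epithelium of 4 untreated male C57BL/6 mice aged 8 weeks, 1 single-cell library per mouse, after sorting of live nucleated cells. All animals belong to 1 group, which has no treated or mutant counterpart.

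The libraries held 4746 to 6003 barcodes and 2.32e+07 to 3.24e+07 unique molecular identifiers (UMIs, 1 per captured RNA molecule), with a median of 3624.5 to 5717.5 UMIs per barcode. The deposited annotation retained 15859 cells, among them 10519 mature OSNs (mOSN) of which 9791 had a receptor identity. The mature marker Omp had a UMI in 99.99% of the mature neurons and Gap43, a marker of immature neurons, in 5.69%. Of 960 populations, 134 held 20 or more neurons (4143 neurons in all). Pairs of libraries shared 4 to 14 barcodes. Levels are UMIs of the gene per 10000 UMIs of all genes, summed over the cells of a mouse, and are given as mean ± SD over the 4 mice.

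Of the 4 genes, 2 were abundant. Calb2 (chromosome 8, 110137502 to 110168210, minus strand, GRCm38) had 52522 UMIs in the retained cells, and Pcp4l1 (chromosome 1, 171173262 to 171196268, minus strand) had 119798. Calb1 (chromosome 4, 15881264 to 15908064, plus strand) had 75 UMIs, and Pcp4 (chromosome 16, 96467606 to 96525793, plus strand) had 101. In each family 1 paralog was thus abundant and the other rare.

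The sequence upstream of the start of the 2 IQ-motif genes is shown because these paralogs stood at opposite ends of detection. Both are the 250 bases before the gene's start in RefSeq (GRCm38.p6), at chr1:171196269-171196518 on the minus strand for Pcp4l1 and at chr16:96467356-96467605 on the plus strand for Pcp4. Capitals mark the CCAAT box (letters CCAAT, either strand).
Pcp4l1: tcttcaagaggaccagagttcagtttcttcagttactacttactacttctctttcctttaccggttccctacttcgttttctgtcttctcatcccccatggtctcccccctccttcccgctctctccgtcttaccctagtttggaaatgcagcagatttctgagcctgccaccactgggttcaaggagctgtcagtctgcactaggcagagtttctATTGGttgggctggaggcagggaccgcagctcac
Pcp4: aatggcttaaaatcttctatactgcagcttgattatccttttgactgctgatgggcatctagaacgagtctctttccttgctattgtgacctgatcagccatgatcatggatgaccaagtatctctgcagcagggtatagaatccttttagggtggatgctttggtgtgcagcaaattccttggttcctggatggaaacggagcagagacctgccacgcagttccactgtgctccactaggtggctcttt

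The Pcp4l1 stretch held 1 CCAAT box, reversed, which began 34 bases before the start, and the Pcp4 stretch held none. Such a box was present in 33.8% of the 32851 RefSeq promoters of the same length. Neither stretch held TATAAA (12.4% of promoters), TAATTA (4.84%) or CANNTG (66.2%), each searched on both strands. G and C made up 51.6% of the Pcp4l1 stretch and 46.8% of the Pcp4 stretch.

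Calb2 was a gene of immature neurons and of a minority of mature ones. In the early immature OSNs (iOSN1) its level was 23.2, 23.8, 23.8 and 23.4 UMIs per 10000 in mice 1 to 4. In the late immature OSNs (iOSN2) it was 21.4, 22.3, 21.9 and 19.97. In mature OSNs it was 4.09, 3.64, 3.21 and 3.58. The immature stages were thus about even between mice, and every mouse had less in mature neurons. A UMI of Calb2 was found in 87.0% of iOSN1 cells, 80.6% of iOSN2 cells and 20.1% of mature neurons, and in 82.5%, 77.3% and 17.8% once each cell was thinned to 2500 UMIs. Immediate neuronal precursors (INP), the cells before iOSN1, held 0.93 ± 0.58. No other retained type had a mean above 1 UMI per 10000.

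Pcp4l1 followed the reverse order. Its level in mature OSNs was 17.6, 16.1, 22.2 and 19.1 UMIs per 10000, highest in mouse 3. In iOSN2 it was 10.9, 9.44, 9.41 and 10.4. In iOSN1 it was 1.56, 1.40, 1.10 and 1.79, below every late immature and mature value. Precursors held 3.01 ± 0.81, so that the level did not rise at each step from precursor to mature neuron, and globose basal cells (GBC), the dividing progenitors, held 0.79 ± 0.20.

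Outside the neuronal lineage Pcp4l1 was also present in supporting cells. Sustentacular cells (Sus), the glia-like supporting cells of the epithelium, held 10.9, 11.4, 12.1 and 13.1 UMIs per 10000, with a UMI in 87.8% of 336 cells. The microvillar group Mv2 held 4.80 ± 0.19 with a UMI in 81.1% of 1768 cells. Omp, the mature neuron marker, was also found in these cells, at 3.54 ± 1.72 in Sus and at 0.82 ± 0.24 in Mv2, with a UMI in 23.8% and 18.9% of cells. In mature neurons Omp (72.1 ± 3.78) was higher than Pcp4l1, whereas in Sus and Mv2 Pcp4l1 was higher than Omp, and Calb2 had a UMI in 3.57% and 1.36% of those cells. Median depth was 5587 UMIs in Sus, 5081 in Mv2 and 4861 in mature neurons.

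**Figure D1:**
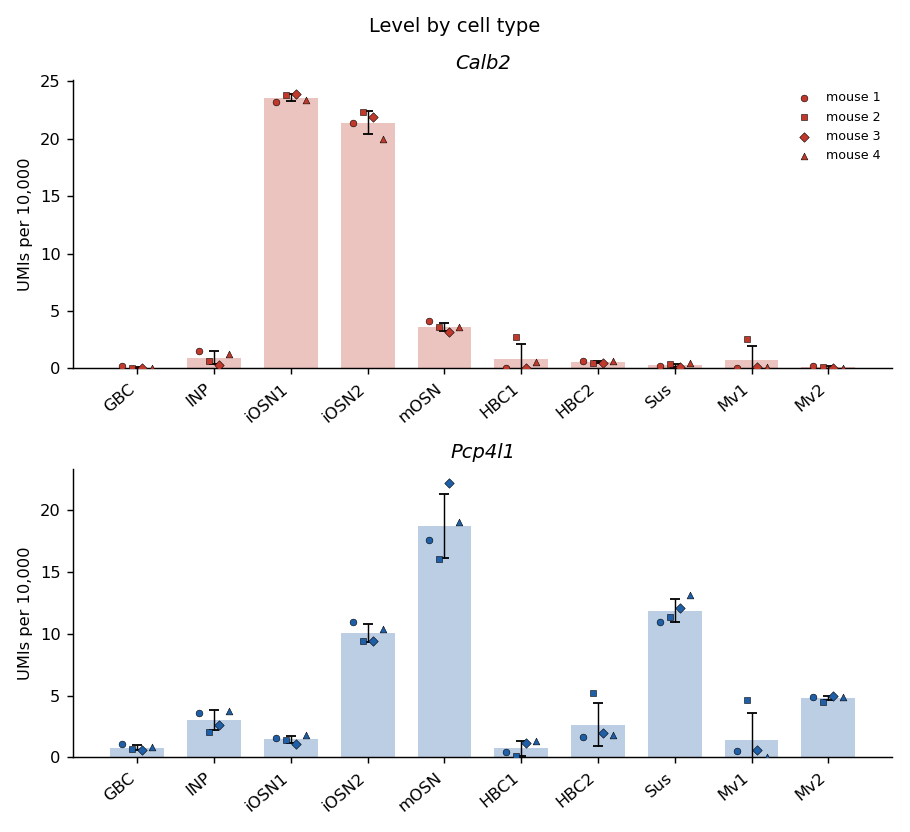
Level of Calb2 and Pcp4l1 (UMIs per 10,000 UMIs) in each annotated cell type. Bars are means over 4 mice, error bars SD and symbols single mice. Calb2 stands between 19.97 and 23.8 in iOSN1 and iOSN2 and at 3.63 in mature OSNs (mOSN), whereas Pcp4l1 is highest in mOSN at 18.7 and second in Sus at 11.9.

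Calb1 was detected at single molecules along the lineage. It had 6 UMIs in 202 GBC, 25 in 284 precursors and 33 in 866 iOSN1 cells, or a UMI in 2.97%, 5.99% and 2.66% of cells (Wilson 95% intervals 1.37 to 6.33, 3.77 to 9.38 and 1.78 to 3.95). In iOSN2 there was 1 UMI in 1006 cells. In 10519 mature neurons there were 5, each in a different cell. The stage of highest Calb1 thus lay before that of Calb2, although the intervals of precursors and iOSN1 cells overlapped. Intervals cover counting error only.

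Pcp4 had its highest share in a basal cell group. In the horizontal basal cells of group HBC1, the reserve stem cells, 25 of 210 cells had a UMI (11.9%, Wilson 95% interval 8.20 to 17.0) against 2 of 544 in group HBC2. Its level in HBC1 was 0.810, 0.144, 0.307 and 0.282 UMIs per 10000 in mice 1 to 4, so mouse 1 lay above the rest. The basal cell markers Krt5 and Trp63 were at 21.3 ± 3.31 and 7.04 ± 1.30 in HBC1, and at 7.28 ± 0.95 and 1.75 ± 0.42 in HBC2. A further 15 UMIs came from GBC and 20 from iOSN1. Only 3 mature neurons had a UMI of Pcp4, and all 3 expressed Gucy1b2, a guanylate cyclase subunit of a non-canonical neuron type, of which there were 6 neurons in all. These Gucy1b2 neurons were singled out after their values were seen.

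The deposited clustering of mature neurons, made without receptor genes, has 10 clusters, 2 of them named for Calb2 by the depositors. The gene was used to make and to name those clusters, so its height there is no finding. In the dorsal Calb2 cluster its level was 30.1, 27.4, 27.7 and 31.1 UMIs per 10000, and in the ventral one 28.1, 27.3, 22.6 and 26.7. These clusters held 74.1% of all Calb2 UMIs of mature neurons in 9.69% of the neurons. Both totals include mature neurons without a deposited cluster, whose level is not given here. In the other clusters the mean ran from 0.02 in the ventral Dlg2 cluster to 0.92 in the dorsal Cd36 cluster.

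Pcp4l1 had its own gradient over the same clusters. The neurons of the clusters named for Dlg2, a synaptic scaffold gene, held 53.1, 52.5, 66.0 and 56.8 UMIs per 10000 dorsally and 52.6, 48.4, 60.0 and 56.4 ventrally, and every one of these 1232 neurons had a UMI. They made up 11.7% of mature neurons and gave 36.2% of the Pcp4l1 UMIs. The plain Ventral cluster held 15.8 ± 2.14 and the plain Dorsal cluster 12.0 ± 2.12. Lowest were the Calb2 clusters, at 1.08 ± 0.12 dorsally and 0.45 ± 0.08 ventrally, and next the ventral Cd55 cluster at 3.10 ± 0.24. The 4 mice of each Calb2 cluster lay below every mouse of every cluster not named for Calb2. The clustering left out receptor genes but not Pcp4l1, so its separation by cluster is also a description.

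Calb2 and Pcp4l1 thus took opposite places in the clusters at either end. The Dlg2 clusters, highest in Pcp4l1, had the fewest Calb2 molecules, 9 UMIs in 435 dorsal and 10 UMIs in 797 ventral neurons. The Cd36 and plain clusters were ordered in this way only in part. Calb2 was 0.92 in dorsal Cd36, 0.87 in Dorsal, 0.76 in Ventral and 0.46 in ventral Cd36. Pcp4l1 was 16.9, 12.0, 15.8 and 18.2 in the same clusters. The Cd55 clusters did not follow it, with 0.32 of Calb2 and 9.34 of Pcp4l1 dorsally and 0.52 and 3.10 ventrally.

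**Figure D2:**
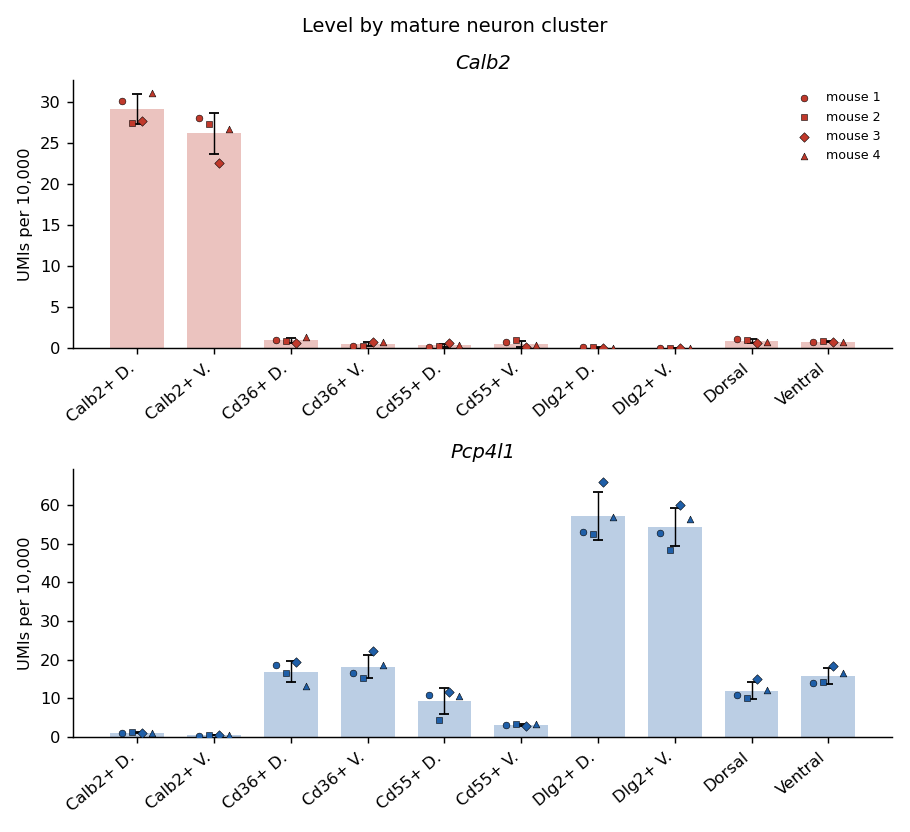
Level of Calb2 and Pcp4l1 (UMIs per 10,000 UMIs) in the 10 deposited clusters of mature neurons. Bars are means over 4 mice, error bars SD and symbols single mice. Calb2 is above 20 in the clusters named for it and under 1.3 in every mouse of every other cluster, and Pcp4l1 is above 48 in the Dlg2 clusters and under 1.3 in the Calb2 clusters.

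Split by receptor, Calb2 was at 5 UMIs per 10000 or more in 23 of the 134 populations, between 1 and 5 in 19 and under 1 in 92, of which 38 had no UMI. Populations were placed by their UMIs summed over all mice. By these sums Olfr1406 stood just inside the upper limit at 6.11, and Olfr1364 just outside it at 4.58. As means over mice they were 6.60 ± 3.00 and 4.70 ± 0.40, and Olfr1437 was nearest inside at 5.12 ± 3.69. The 5 highest populations were all dorsal by their Nqo1 and Nfix counts and expressed class II receptors, the receptor class outside the class I cluster of chromosome 7. Olfr972 led with 60.2, 42.7, 40.03 and 43.0 UMIs per 10000 in mice 1 to 4 (22 neurons). Mouse 1 stood above the others there with 7 neurons, and 16 of the 22 neurons (72.7%) lay in the ventral Calb2 cluster although their counts called the population dorsal. It was followed by Olfr77 at 39.1 ± 10.0, Olfr884 at 36.8 ± 5.93, Olfr411 at 35.3 ± 3.57 and Olfr1039 at 37.8 ± 10.6, which did not differ from each other beyond their spread. Their order is that of the sums over mice, 40.7, 35.4, 34.8 and 33.8, with 21 to 29 neurons each.

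Pcp4l1 was at 5 or more in 88 populations, between 1 and 5 in 21 and under 1 in 25, of which 4 had none. By the same sums Olfr689 stood inside the limit of 5 at 5.10 and Olfr1364 outside it at 4.43. The 5 highest were ventral and of class II. Olfr166 led with 63.8, 64.4, 98.9 and 80.6 UMIs per 10000 (39 neurons). Next came Olfr741 at 56.9 ± 8.56, Olfr1018 at 57.5 ± 6.50, Olfr455 at 56.6 ± 13.9 and the pseudogene Olfr1326-ps1 at 55.5 ± 15.4, again within each other's spread. Mouse 3 was the highest mouse in Olfr166 and Olfr741 and the second highest in the other 3. Calb1 had 1 UMI in each of 2 populations, Olfr1364 and Olfr55, and none in the other 132. Pcp4 had none in any of the 134.

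The order of populations was alike in different mice. Spearman's rho between pairs of mice, over the 105 to 126 populations with 3 or more neurons in both, was 0.65 to 0.75 for Calb2 and 0.93 to 0.96 for Pcp4l1. The points share a library within each mouse and many are at 0 for Calb2, so these are descriptions.

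Across receptor populations the 2 genes ran opposite. Spearman's rho was -0.68 over sums of all mice of the 134 populations. Over those with 3 or more neurons in a mouse, 130, 126, 113 and 130 populations, it was -0.68, -0.63, -0.56 and -0.60 in mice 1 to 4. Over sums of all mice it was -0.76 in the 38 dorsal and -0.66 in the 96 ventral populations, and -0.87 in the 15 class I and -0.65 in the 119 class II populations. Leaving out populations whose main cluster was a Calb2 or Dlg2 one, it was -0.57 over 110 populations. Both values of a population come from the same neurons and libraries and share the same total, and no p is given.

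The relation was not a mirror image. Of the 23 populations high in Calb2, 17 were under 1 for Pcp4l1, 5 were between 1 and 5, and only Olfr1406 was at 5 or more for both. Olfr1406 neurons (35) held 6.76, 10.8, 4.06 and 4.79 UMIs per 10000 of Calb2 and 24.0, 10.8, 38.5 and 12.7 of Pcp4l1, so the mouse lowest in Pcp4l1 was the highest in Calb2. Low levels of both genes were also found: 4 populations, Olfr1440, Olfr279, Olfr295 and Olfr354, were under 1 for each. A further 8 lay between 1 and 5 for both.

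**Figure D3:**
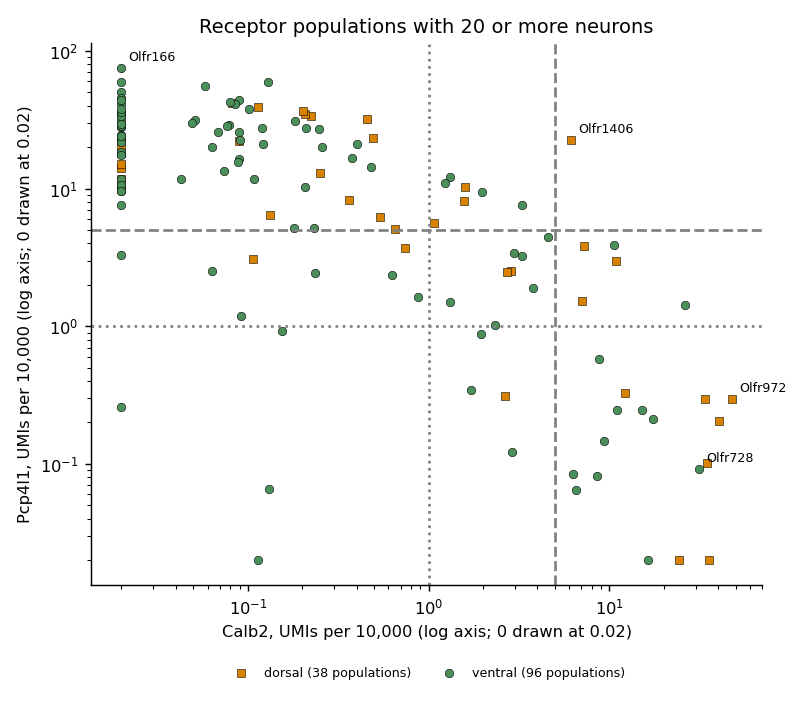
Level of Calb2 (horizontal) and Pcp4l1 (vertical) in UMIs per 10,000 UMIs on log axes, 1 point per receptor population with 20 or more neurons, summed over 4 mice. Dotted lines mark 1, dashed lines 5, and values of 0 are drawn at 0.02. Of the 134 populations 80 lie high in Pcp4l1 with Calb2 under 1, 17 lie in the opposite corner, and Olfr1406 alone is above both dashed lines.

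Single neurons were then compared within populations. After thinning to 2500 UMIs, 3810 neurons of the 134 populations were left, of which 154 had a UMI of both genes, 595 of Calb2 alone, 2325 of Pcp4l1 alone and 736 of neither. If the genes were detected independently across all neurons, 487.3 would have had both. If they were independent within each population, 187.3 would have had both, so most of the shortfall from 487.3 was in the difference between populations. In the 13 populations where each gene was found in 20% or more of the neurons, 96 of 452 neurons had both, against 117.6 for independence within populations. One of these was Olfr1226 with 79 neurons, at 10.5 ± 2.88 for Calb2 and 4.07 ± 1.13 for Pcp4l1. These counts are descriptions of the same neurons, with no test.

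With all populations of a plain cluster pooled, neurons with a Calb2 UMI had Pcp4l1 less often in every mouse. After thinning, Pcp4l1 was found in 34.6 to 37.9% of Ventral neurons with Calb2 and in 74.95 to 80.7% of those without, and in 39.5 to 48.0% against 71.5 to 76.0% of Dorsal neurons. Gap43 was found in 4.65 to 10.3% of Ventral neurons with Calb2 and in 1.63 to 2.52% of those without, and in 0 to 11.7% against 0.76 to 2.18% of Dorsal ones. Omp was 80.3 to 93.0 against 77.9 to 82.1 UMIs per 10000 in Ventral neurons, and 63.3 to 82.4 against 64.9 to 72.1 in Dorsal ones, where it was lower with Calb2 in mice 1, 2 and 4. Since populations were pooled, these shares also hold differences between populations. Olfr1226, for instance, had 76 of its 79 neurons in the Ventral cluster. The parts of such differences and of residual immaturity were not tested.

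Populations of neighbouring receptor genes could differ fully, but pairs with both partners high or both low were more common for each gene. There were 77 pairs of receptor genes within 100 kb of each other and with 20 or more neurons each. For Calb2, 16 pairs had 1 partner at 5 or more and the other under 1. Both partners were at 5 or more in 1 pair and under 1 in 35. For Pcp4l1 the corresponding counts were 8, 40 and 4. Of all 134 populations, 23 were at 5 or more and 92 under 1 for Calb2, and 88 and 25 for Pcp4l1. The share of such pairs among all pairs of populations was not computed, so these counts do not set neighbours apart from other pairs. The pairs share members, as 89 populations made up the 77 pairs. The following are examples around pairs that differ, singled out after their values were seen.

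Olfr728 (chromosome 14, 50133758 to 50142680) lies between Olfr726 (50083570 to 50090953) and Olfr730 (50183296 to 50188198), with Olfr731 (50233531 to 50241866) beyond. Olfr728 neurons (83) held 35.1, 33.8, 26.2 and 27.9 UMIs per 10000 of Calb2, whereas Olfr731 neurons (47) held none, Olfr730 neurons (42) held at most 0.317 in any mouse and Olfr726 neurons (27) at most 0.819. Pcp4l1 was at most 0.136 in any mouse in Olfr728 neurons, 26.9 ± 8.19 in Olfr726 neurons and 24.2 ± 9.27 in Olfr731 neurons. It was 5.41 ± 2.54 in Olfr730 neurons (5.17 over all mice), just above the limit of 5 and below both of those neighbours.

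Olfr1507 (chromosome 14, 52488791 to 52495749) and Olfr1509 (52442990 to 52452574) showed the same contrast. Calb2 was 21.8, 25.8, 29.6 and 27.2 UMIs per 10000 in Olfr1507 neurons (42) and 0 in all mice in Olfr1509 neurons (30). Pcp4l1 was 1.16 ± 0.86 and 48.2 ± 17.9. Olfr55 neurons (75, chromosome 17, 33168447 to 33180753) held 11.2 ± 4.94 of Calb2, while no UMI was found in the neurons of Olfr239 (71, 33191302 to 33202506) and Olfr1564 (26, 33211206 to 33221690). Pcp4l1 was 0.23 ± 0.13, 17.4 ± 3.84 and 40.1 ± 8.90 in that order.

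**Figure D4:**
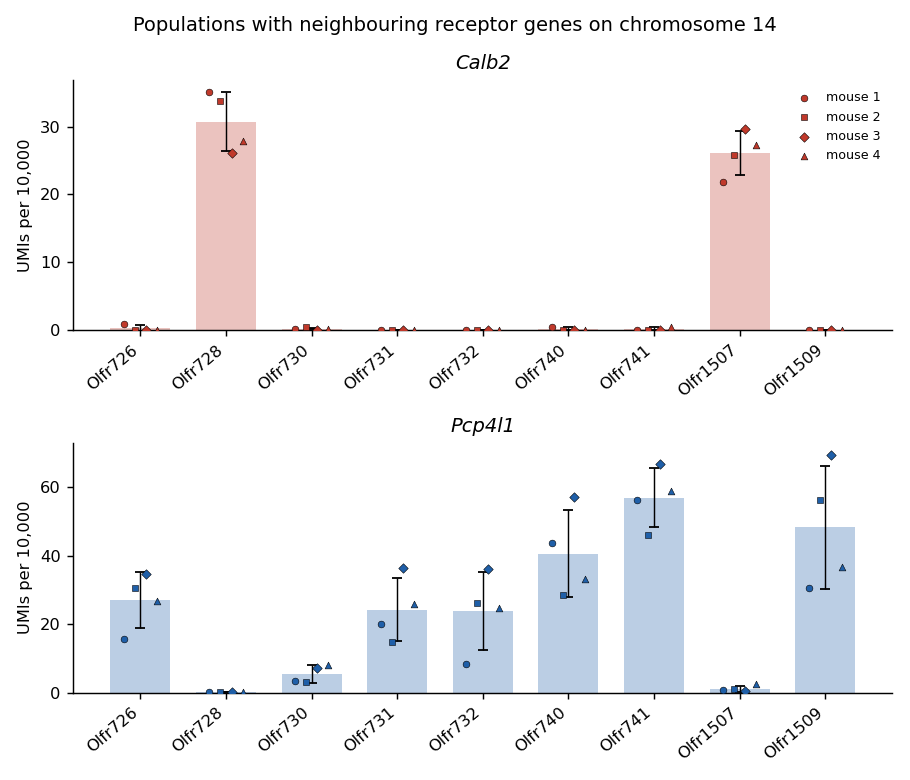
Level of Calb2 and Pcp4l1 (UMIs per 10,000 UMIs) in 9 populations with neighbouring receptor genes on chromosome 14, singled out after their values were seen. Bars are means over 4 mice, error bars SD and symbols single mice. Olfr728 and Olfr1507 are above 20 for Calb2 in every mouse and under 2.5 for Pcp4l1, and the other 7 are under 1 for Calb2.

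Other genes followed the 2 members across the same 134 populations. Among 3501 genes with a mean of at least 0.5 UMIs per 10000, Calb2 was most like Ppp3ca, the catalytic subunit of the calcium- and calmodulin-dependent phosphatase calcineurin (Spearman's rho 0.72). Efna3, an ephrin ligand of axon guidance, followed at 0.65, then Sh3glb2 at 0.63 and Ptp4a3 at 0.62. Lowest was S100a5, an EF-hand calcium-binding gene, at -0.73.

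Pcp4l1 was most like S100a5 at 0.94. Dlg2 followed at 0.86, then the ephrin receptor Epha5 at 0.82 and Kcnmb3, a subunit of calcium-activated potassium channels, at 0.82. Lowest were the ephrin ligands Efna3 at -0.87 and Efna5 at -0.87. S100a5 ran from 1.94 to 909.0 UMIs per 10000 over the populations, with a median of 182.5. Omp, by contrast, had a rho of -0.05 with Calb2 and 0.19 with Pcp4l1. Calb1 and Pcp4 were too rare in these populations for a like gene. These correlations are descriptions over populations that share libraries, and no p is given.

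The next question was whether the level of a gene in immature neurons depended on the receptor they had begun to express. Receptors were ranked in mature neurons, over 353 populations with 10 or more, and the levels were then measured in immature cells, which the ranking had not used. Immature cells were given a receptor where it had 2 or more UMIs and at least 2/3 of all receptor UMIs, which 586 of 866 iOSN1 and 941 of 1006 iOSN2 cells met. High receptors were the 88 of these with the highest mature level and low receptors the 176 with the lowest. These groups are ranks and do not follow the limits of 5 and 1 used for populations above. High receptors reached down to a mature level of 1.47 for Calb2 and 30.2 for Pcp4l1. Low receptors reached up to 0.124 for Calb2 and 13.5 for Pcp4l1. High for Calb2 thus includes levels under 5, and low for Pcp4l1 includes levels above 5. The iOSN1 and iOSN2 clusters were themselves made on all genes, the members included. A smaller share of iOSN1 than of iOSN2 cells met the rule for a receptor. The part of receptor calls in differences between the stages was not tested.

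For Calb2, high receptors had a mature level of 13.5 ± 1.422 UMIs per 10000 and low ones of 0.02 ± 0.01, which is the ranking itself. In iOSN1 the high receptors had 25.4, 32.005, 33.7 and 30.5 in mice 1 to 4 (78 cells) and the low receptors 32.3, 24.9, 29.1 and 31.7 (148 cells). The groups overlapped, and 2 of 4 mice were higher for high receptors. In iOSN2 the high receptors had 38.9, 37.3, 32.1 and 30.03 (162 cells) and the low ones 16.2, 11.4, 9.61 and 14.1 (224 cells), without overlap. Immature neurons with receptors of low populations therefore still held Calb2, at about the level of the others in iOSN1 and below it in iOSN2.

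The edgeR quasi-likelihood test on UMI sums per mouse, with the mouse as a block, gave a log2 change of 1.421 (SE 0.08) for Calb2 in iOSN2, with a Benjamini-Hochberg adjusted p of 2.33e-19, where 3.65% of 6487 genes were called at 0.05. The mean of the 4 per-mouse log2 ratios was 1.45 ± 0.32, higher in 4 of 4 mice. On those 4 ratios alone an exact two-sided permutation test gave p = 0.125, the smallest that 4 pairs allow. DESeq2 gave 1.421 with an SE of 0.16 (adjusted p 1.35e-16), an SE above that of edgeR. The edgeR p is not a measure of the spread between the 4 mice, here and in the tests that follow. A joint edgeR fit of both stages was added after the data had been seen. In it the contrast within iOSN1 was 0.04 (SE 0.11, adjusted p 0.98), with 7 of 6001 genes called. The difference between the stages, tested as an interaction in that fit, was 1.36 (SE 0.15, adjusted p 3.08e-08), with 0.167% of 6001 genes called.

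For Pcp4l1, mature levels were 46.0 ± 6.44 for high and 4.32 ± 0.66 for low receptors by the ranking. In iOSN2 the high receptors had 20.6, 24.0, 33.6 and 21.1 UMIs per 10000 (106 cells), against 0.694, 2.42, 1.12 and 2.13 for the low ones (292 cells). The groups did not overlap, and the high ones were at 9.89 to 30.04 times the low ones of the same mouse. In iOSN1 both were low, at 1.28 ± 0.73 (84 cells) and 0.61 ± 0.14 (136 cells), and the high receptors had more in each mouse.

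The edgeR test gave a log2 change of 4.08 (SE 0.13, adjusted p 3.18e-36) for Pcp4l1 in iOSN2, where 6.21% of 5994 genes were called. The per-mouse log2 ratio was 4.10 ± 0.92, higher in 4 of 4 mice (exact permutation p = 0.125, the smallest possible). DESeq2 gave 4.16 with an SE of 0.44 (adjusted p 4.19e-18), an SE again above that of edgeR. In the joint edgeR fit of both stages the change within iOSN1, 1.16 (SE 0.34), did not pass the threshold, with an adjusted p of 0.11. In that contrast 28 of 5415 genes were called. The interaction, also added after the data had been seen, was 2.92 (SE 0.40, adjusted p 1.30e-06), with 1.09% of 5415 genes called. Without mouse 2 it was 3.97, and without mouse 1 it was 2.37.

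Each ranking also separated the other gene in iOSN2. Ranked by Calb2, Pcp4l1 was 0.97 ± 0.31 for high and 15.4 ± 2.89 for low receptors (log2 change -4.04, SE 0.13, adjusted p 9.86e-28). Ranked by Pcp4l1, Calb2 was 8.25 ± 3.08 for high and 30.2 ± 2.99 for low receptors (log2 change -1.83, SE 0.09, adjusted p 4.65e-26). The 2 lists of high receptors, each 88 of 353, shared 1 receptor. Over the 353 mature populations the genes had a rho of -0.66, so the 2 rankings are in part 1 split reversed. Receptors high for 1 gene and low for the other were not counted. The mature marker Omp did not pass the test, at 49.8 ± 1.71 and 47.1 ± 3.48 in the Calb2 ranking and at 47.0 ± 4.13 and 49.4 ± 1.80 in the Pcp4l1 ranking (log2 changes 0.05 and -0.02, adjusted p 0.80 and 0.94). The immature marker Gap43 passed in both. It was 10.7 ± 1.57 for receptors high and 7.66 ± 0.35 for receptors low in Calb2, a log2 change of 0.45 (SE 0.08, adjusted p 0.000101). It was 6.64 ± 0.65 and 9.68 ± 0.54 for those high and low in Pcp4l1, a change of -0.48 (SE 0.09, adjusted p 4.84e-05). The part of Gap43, and so of stage within iOSN2, in these differences was not tested.

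**Figure D5:**
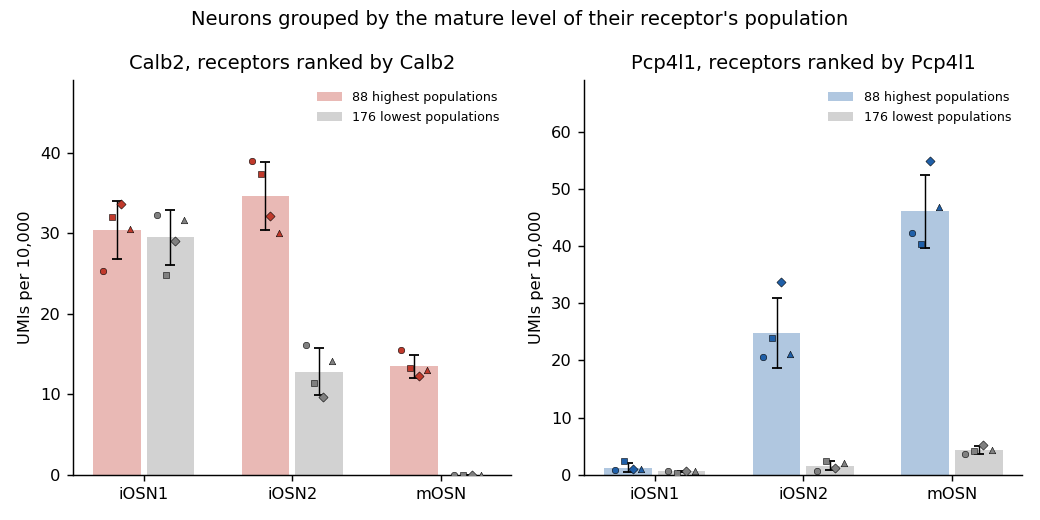
Level of Calb2 (left) and Pcp4l1 (right) in UMIs per 10,000 UMIs, in early immature (iOSN1), late immature (iOSN2) and mature (mOSN) neurons whose receptor was among the 88 highest or the 176 lowest of 353 populations by mature level. Bars are means over 4 mice, error bars SD and symbols single mice. The groups overlap for Calb2 in iOSN1 and separate in iOSN2, and the mature bars show the ranking itself.

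The genes named above for their likeness to the members in mature populations were tested in iOSN2 as well. S100a5 had a log2 change of -3.60 (SE 0.14, adjusted p 4.24e-24) in the Calb2 ranking and of 3.54 (SE 0.09, adjusted p 5.70e-41) in the Pcp4l1 ranking. Efna3 had 1.19 (SE 0.10, adjusted p 5.30e-12) and -1.65 (SE 0.14, adjusted p 2.78e-14), and Ppp3ca 0.80 (SE 0.11, adjusted p 6.71e-07) and -1.20 (SE 0.13, adjusted p 2.21e-10). Dlg2, Epha5 and Kcnmb3 were lower for receptors high in Calb2 (log2 changes of -1.63, -1.33 and -2.57) and higher for those high in Pcp4l1 (2.01, 1.40 and 2.57). Efna5 had 1.51 and -2.10, Sh3glb2 0.60 and -0.63 and Ptp4a3 0.38 and -0.44, and the highest adjusted p of these 6 genes was 0.00294. The rankings use the same neurons, so they are not independent of each other. Of the list of calcium genes, which leaves the members out, 8 of 39 tested were called in the Calb2 ranking, against 3.65% of all genes. The list holds Gap43 and Ppp3ca, which are among the genes called in each ranking. Ppp3ca had already been named for its likeness to Calb2 in mature populations, so it is counted here again. Of the 8 genes 6 were higher for receptors high in Calb2, where 1.45% of all genes were, and 2 lower, where 2.2% were. In the Pcp4l1 ranking 13 of 36 were called, against 6.21% of all genes, 6 of them higher, where 3.57% were, and 7 lower, where 2.64% were.

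Calb1 and Pcp4 could not be ranked, since their mature levels were at 0 in nearly all populations. In iOSN2 they had 1 and 7 UMIs in 1006 cells.

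Finally the members were compared between neurons of class I and class II receptors. The class of a receptor comes from its position, which was not used to choose the genes, but the neurons are those whose population levels were known. Class I receptors lie in 1 cluster of 156 receptor genes on chromosome 7 (102476579 to 105369355), and 1071 neurons of 106 populations expressed them, against 8641 neurons of 843 class II populations. Calb2 was 3.90, 3.19, 3.46 and 2.94 UMIs per 10000 in class I and 4.17, 3.58, 3.23 and 3.53 in class II neurons. The groups overlapped and the edgeR test gave -0.04 (SE 0.04, adjusted p 0.60), where 18% of 12541 genes were called. Of the class I neurons 1026 were in dorsal populations, and these held 3.28 ± 0.42 of Calb2 against 6.61 ± 1.03 in dorsal class II neurons. The per-mouse log2 ratio was -1.004 ± 0.27 and below 0 in 4 of 4 mice, a description of a split made after the data had been seen. The alternative that set all class I neurons against dorsal class II neurons alone turned the call for Calb2, with a log2 change of -0.90 by edgeR (SE 0.04, adjusted p 1.57e-58), where 7.02% of 10402 genes were called. As above, this p is not a measure of the spread between mice. Ventral class II neurons held 2.70 ± 0.21.

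Pcp4l1 was 20.6, 16.2, 26.3 and 23.5 UMIs per 10000 in class I and 16.9, 16.1, 21.5 and 18.7 in class II neurons. The groups overlapped, but class I was higher within each mouse, by under 1% in mouse 2. The edgeR test gave 0.29 (SE 0.03, adjusted p 5.42e-23) with the mouse as a block, and 0.30 (SE 0.12, adjusted p 0.13) without it. The per-mouse log2 ratio was 0.23 ± 0.15 (exact permutation p = 0.125). DESeq2 gave 0.29 with an SE of 0.05 (adjusted p 7.47e-09), above the SE of edgeR. The edgeR p is not a measure of the spread between mice. Against dorsal class II neurons alone edgeR gave 0.45 (SE 0.03, adjusted p 4.97e-38). No UMI of Calb1 was found in 1071 class I neurons, which allows up to 0.280% of cells with a UMI, and 3 were found in class II neurons. Pcp4 had no UMI in either, which allows up to 0.280% and 0.0347% of cells with a UMI. These limits cover counting error only and are not limits on the cells that express the genes.

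Among the 71 listed genes of calcium binding, calmodulin binding and calcium transport, 51 were tested between the classes. Of these 15 were higher in class I, where 9.12% of all genes were, and 14 were lower, where 8.92% were, while 22 did not pass. Their median log2 change was 0.01, and that of all genes was -0.0048. The largest changes were in genes with few molecules. Atp2b2, a plasma membrane calcium pump, was 0.0206 ± 0.0115 in class I and 0.00189 ± 0.00081 UMIs per 10000 in class II (log2 change 3.39, SE 0.84, adjusted p 0.000804). Itpr1, a calcium release channel of the endoplasmic reticulum, was 0.175 ± 0.073 and 0.0519 ± 0.0100 (1.74, SE 0.21, adjusted p 1.46e-13). Efhd2, an EF-hand gene, was 0.199 ± 0.040 and 0.105 ± 0.004 (0.91, SE 0.17, adjusted p 4.94e-06). Gap43, which binds calmodulin, was 0.0868 ± 0.0555 and 0.174 ± 0.030 (-0.80, SE 0.19, adjusted p 0.000447). Class goes with zone here, since 1026 of 1071 class I neurons but 2248 of 8641 class II neurons were in dorsal populations. Against dorsal class II neurons alone 45 listed genes were tested, of which 9 were higher in class I, where 4.15% of all genes were, and 9 lower, where 2.86% were. Itpr1 then had a log2 change of 1.21, Efhd2 of 0.72 and Gap43 of -1.34, with a highest adjusted p of 0.00690, and Atp2b2 did not pass the filter on low counts.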

How the data were processed

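Single-cell 3' libraries from 4 mice were processed by the authors with Cell Ranger 6.0.1 (GRCm38), and the deposited tables hold raw UMI counts per gene and barcode. The deposited cell table also gives the authors' percent of mitochondrial UMIs and ratio of UMIs to detected genes per cell, which were not used. Cell types, mature neuron clusters and receptor identities were taken from the deposited cell annotation, for which the authors removed blood, immune and damaged cells, and no doublet caller was run here. The merged table and the single matrices held the same counts of the 4 genes in all 21809 barcodes. Levels are summed UMIs of a gene per 10000 UMIs per mouse. A count of 0 allows up to 3 counts. Populations were called dorsal where Nqo1 UMIs exceeded Nfix UMIs and ventral where Nfix UMIs exceeded Nqo1 UMIs. Those with equal counts were given neither zone. Receptors were called class I where the gene lay in the chromosome 7 group split at gaps over 500 kb.

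Sums per mouse and group were tested with edgeR 4.0.16 in R 4.3.3 (TMM, filterByExpr, quasi-likelihood, Benjamini-Hochberg at 0.05 over all genes, receptor genes left out) with the mouse as a block, since both sums of a mouse come from the same animal and library. The code was tested on simulated counts. Alternatives were DESeq2 1.42.0, RLE factors, no filter on low counts, no block, each mouse left out, thinning to 2500 UMIs and other cell or receptor sets. Calcium genes, populations and like genes were named by fixed rules: the 4 largest called changes between classes, the 5 highest populations, and the 4 highest and 2 lowest rho. The members, lists and rules were chosen with earlier results of these data known. A gene that the rule on like genes selects is not reported here.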

Additional observations from a re-analysis of the deposited data

Results flagged for a closer look

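In groups of 4 mice, 9 of 56 sets of member levels held 1 mouse far from the other 3 by Dixon's 95% limit. For normally distributed values this limit flags about 1 in 20 sets. A set with 1 level above 0 and the other 3 at 0 is always flagged, so the 2 rates cannot be compared. In cell types, mouse 2 was high for Pcp4l1 in HBC2 (5.21 against 1.66 to 1.99 UMIs per 10000, 61 cells), and the sustentacular marker Cyp2g1 was 44.0 in the same cells of that mouse against 15.4 to 26.8 in the others. Omp was 7.41 in these cells of mouse 2 against 2.53 to 3.93 in the others. The part of either marker's cells in this level was not tested. Mouse 2 was also high in the microvillar group Mv1 for Calb2 (2.53 against 0.05 to 0.12) and for Pcp4l1 (4.61 against 0 to 0.58), with 26 cells. In the same cells the neuronal markers Omp and Gap43 were 12.7 and 1.90, against 0.41 to 2.28 and 0 in the other mice, and their part in these levels was not tested. Its Pcp4l1 level in the dorsal Cd55 cluster was low, at 4.30 against 10.7 to 11.5 (41 neurons).

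In receptor populations, Calb2 in Olfr972 was 60.2 in mouse 1 against 40.03 to 43.0 (7 neurons). The other 4 were levels near 0: Calb2 in Olfr741 of mouse 4 (0.413) and in Olfr455 of mouse 1 (0.161), and Pcp4l1 in Olfr1039 of mouse 4 (1.08) and in Olfr411 of mouse 3 (0.952, 2 neurons).

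The contrast between high and low receptors differed between immature stages by the interaction term, with a log2 difference of 1.36 for Calb2 (adjusted p 3.08e-08) and of 2.92 for Pcp4l1 (adjusted p 1.30e-06), both by edgeR.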

How the results depend on the processing

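The direction and side of the threshold of Calb2 and Pcp4l1 in iOSN2 by receptor were kept under every alternative run. The sign of the relation of the 2 genes across populations was kept as well. For the stage difference the only alternatives run left out 1 mouse each, and these kept its direction and side of the threshold. The number of genes called moved with the setting. Between classes it was 2263, against 1040 with DESeq2, 1080 without the mouse as a block, 1169 after thinning, 730 with all class I against dorsal class II populations and 768 between dorsal populations of both classes, an alternative added after the data had been seen. In iOSN2 ranked by Calb2 it was 237, against 50 with DESeq2, 75 after thinning, 124 with exactly 1 receptor detected and 99 to 199 without 1 mouse, lowest without mouse 2. Ranked by Pcp4l1 it was 372, against 110, 98, 137, 187 with the 35 highest populations as high and 235 to 321 without 1 mouse. Without the block, the class change of Pcp4l1 was 0.30 and did not pass (adjusted p 0.13), which ended no other call of a member. The class change of Calb2, not called, turned to 0.046 after thinning and passed the threshold for all class I neurons against dorsal class II populations (-0.90) and between dorsal populations (-0.94).

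The rho of -0.68 became -0.61 over 52 populations with 30 or more neurons, -0.76 over dorsal ones, -0.62 with 1 detected receptor (66 populations) and -0.55 to -0.70 without 1 mouse (67 to 90 populations, since the limit of 20 neurons was applied again), and Pearson's r of log2 levels was -0.75. Calb2 in iOSN1 (23.6) was 22.3 as a mean over cells, 22.8 after thinning and 24.2 with 2000 or more genes per cell, and Pcp4l1 in iOSN2 (10.1) was 9.29 as a mean over cells. The cause of these moves was not tested. Depth limits Calb1 and Pcp4, which are near the floor of 3 counts in most groups.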
